A study of Mus musculus with 24 samples.

Results

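A set of 10 members of the C-type lectin and Fc receptor families were followed in macrophages: 5 lectin genes (Clec7a, Clec4e, Clec4d, Clec4n and Clec5a) and 5 Fc receptor genes (Fcgr1, Fcgr2b, Fcgr3, Fcgr4 and Fcer1g). They were chosen by name, and are 10 of the 23420 genes counted in each library. RNA-seq counts were taken in mouse bone marrow-derived macrophages (BMDM) that lacked TET dioxygenases or thymine DNA glycosylase (TDG), before and after stimulation with KLA, and in Th2 cells. TET enzymes oxidise 5-methylcytosine, TDG excises some of the oxidised bases, and the comparisons ask how far expression of these receptors depends on either step. KLA (Kdo2-lipid A) is the active core of lipopolysaccharide and a ligand of Toll-like receptor 4.

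The 16 BMDM libraries formed 8 groups of 2, in 2 cohorts. The Tet cohort held wild type (WT) and TET iTKO cells (homozygous floxed, fl/fl, at Tet1, Tet2 and Tet3, with a tamoxifen-inducible Cre and Rosa26-EYFP LSL), and the Tdg cohort held WT and TDG iKO cells (Tdg fl/fl with the same Cre and Rosa26-H2B-EGFP/GPI-mCherry LSL). All mice were adult C57BL/6 animals, and the control mice received tamoxifen as the Cre-carrying mice did. The deletion was not limited to macrophages. Each genotype of each cohort was sampled at 0 h and after 6 h of KLA. BMDM were grown from marrow in L929-conditioned medium with added M-CSF. In the Tet cohort the 0 h and 6 h libraries of a replicate came from the same animal. Nothing else in the labels says which libraries share an animal. The p-values thus measure the spread between these libraries, which may be technical. In WT of the Tet cohort the replicates were different animals by their Xist counts, given below.

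C-type lectin receptors of this kind sit on myeloid cells and bind sugars and glycolipids of fungi and mycobacteria. Clec7a (Dectin-1) carries its own tyrosine motif for SYK, whereas Clec4e (Mincle), Clec4d (MCL) and Clec4n (Dectin-2) signal through the FcRγ chain that Fcer1g encodes, and Clec5a (MDL-1) through the adaptors DAP12 and DAP10. Fcgr1 (CD64, high affinity), Fcgr3 (CD16) and Fcgr4 bind IgG and use the same FcRγ chain to activate the cell. Fcgr2b is the inhibitory IgG receptor, whose tail recruits the lipid phosphatase SHIP-1.

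Most of the genes lie in clusters. In mm9 coordinates Clec4n (123179861 to 123197039), Clec4d (123212125 to 123225286) and Clec4e (123231807 to 123239889) are neighbours on chromosome 6, which also holds Clec7a (129411611 to 129422790) and Clec5a (40524897 to 40535804). Chromosome 1 holds Fcgr2b (172890689 to 172906678), Fcgr4 (172949051 to 172959892), Fcgr3 (172981300 to 172995066) and Fcer1g (173159703 to 173164496), and chromosome 3 holds Fcgr1 (96086832 to 96098179). The promoters of Clec4e, Clec5a and Fcgr2b, the 3 members that KLA raised in every genotype, and of Fcgr3, which it lowered in every genotype, are printed so that the start regions of members that moved in opposite directions can be compared. They are the 250 bases before the RefSeq start site (GRCm38.p6), written 5′ to 3′ on the gene's strand, with the PU.1 core GAGGAA or its complement in capitals.
Clec4e, chr6:123289872-123290121, minus strand: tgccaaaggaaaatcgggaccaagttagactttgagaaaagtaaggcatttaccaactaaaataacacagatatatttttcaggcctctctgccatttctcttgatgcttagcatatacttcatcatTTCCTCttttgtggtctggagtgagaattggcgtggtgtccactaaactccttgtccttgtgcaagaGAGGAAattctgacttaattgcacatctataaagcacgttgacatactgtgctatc
Clec5a, chr6:40585806-40586055, minus strand: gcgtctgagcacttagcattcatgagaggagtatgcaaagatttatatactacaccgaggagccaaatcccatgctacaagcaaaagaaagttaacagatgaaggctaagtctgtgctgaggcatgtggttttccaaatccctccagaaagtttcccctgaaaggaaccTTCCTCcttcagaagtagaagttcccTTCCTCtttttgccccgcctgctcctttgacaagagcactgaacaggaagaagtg
Fcgr2b, chr1:170976072-170976321, minus strand: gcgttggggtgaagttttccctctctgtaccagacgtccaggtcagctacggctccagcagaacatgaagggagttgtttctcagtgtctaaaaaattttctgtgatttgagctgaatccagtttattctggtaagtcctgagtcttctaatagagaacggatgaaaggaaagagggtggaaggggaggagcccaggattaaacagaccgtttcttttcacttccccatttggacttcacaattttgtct
Fcgr3, chr1:171059404-171059653, minus strand: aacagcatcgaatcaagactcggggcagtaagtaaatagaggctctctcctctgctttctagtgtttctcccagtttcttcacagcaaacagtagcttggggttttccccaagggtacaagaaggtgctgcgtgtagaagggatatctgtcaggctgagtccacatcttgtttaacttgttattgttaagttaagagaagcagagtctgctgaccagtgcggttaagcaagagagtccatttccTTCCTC

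PU.1 is the transcription factor that marks myeloid cells. A promoter was found for 9 of the 10 members, Clec4n having none in the table. The PU.1 core, searched on both strands, occurred in 7 of the 9, at -123 and -56 of Clec4e, -81 and -55 of Clec5a and -6 of Fcgr3, and once each in Clec7a, Clec4d, Fcgr1 and Fcgr4. It was not in the windows of Fcgr2b and Fcer1g, and 23.3% of 32851 promoters of this length held it. The NF-kB-like pattern, searched in its 10-letter form with open middle bases (45.8% of promoters), occurred in Fcgr2b, Fcgr3, Fcgr4 and Fcer1g, with overlapping matches in all but Fcer1g, and not in the windows of the 4 lectins and Fcgr1. The C/EBP-like pattern TTNCNNNAA (32.9% of promoters) was in 7 of the 9, in all but Clec5a and Fcer1g. Within Fcgr3 a C/EBP-like match overlapped the NF-kB-like ones. The AP-1 pattern TGANTCA (6.75% of promoters) was in none, and the STAT-like TTCNNNGAA (7.02%) in Fcgr1 alone, where it overlapped the C/EBP-like match. Matches of these letters are descriptions of the windows and not binding sites.

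Fcgr2b and Fcgr3 share coding sequence, which bears on how their reads were counted. Of the 50-base windows of their transcripts, 8.94% of those of Fcgr2b and 10.7% of those of Fcgr3 occur in the other gene as well, in all 139 windows. The longest shared run is 129 bases, at 402 to 530 of the Fcgr2b transcript and 313 to 441 of the Fcgr3 transcript, inside the coding part of both:
shared stretch, mm9: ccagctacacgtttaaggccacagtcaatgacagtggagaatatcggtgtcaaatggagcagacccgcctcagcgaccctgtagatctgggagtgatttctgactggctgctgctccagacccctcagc

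Read pairs wholly inside that run cannot be told apart between both genes. Pairs without a unique alignment were tallied apart from the genes, so such pairs would be missing from both counts. The changes of both genes are thus slightly uncertain. Clec5a and Clec4n had 0.822% and 0.812% of windows elsewhere in the genome and the other 6 members none. No other annotated gene overlapped an exon of a member.

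Reads assigned to genes ranged from 4982950 (WT 0 h replicate 2 of the Tdg cohort) to 21503302 per BMDM library, with a median of 15316868. Tet2 and Tet3 normalised counts were not lower in TET iTKO (654 to 1512 and 1163 to 1448) than in WT of that cohort (473 to 1329 and 1035 to 1293), Tet1 had at most 17 reads, and Tdg had at most 3 reads in any library. Tdg was thus nearly uncounted in WT as well, and counts over whole genes do not resolve deleted exons of the Tet genes, so these values do not check the genotype labels. The 7 macrophage markers, Csf1r and Cd68 among them, summed to between 281282 and 373653 normalised counts in every library. Xist had 0 reads in replicate 1 of WT of the Tet cohort at both times and 17088 to 22210 reads in the other 6 libraries of that cohort. The WT replicates there thus differed in Xist, whereas both TET iTKO replicates had it. This imbalance enters each comparison of TET iTKO with WT, and its part was not tested. In the Tdg cohort, 7 neutrophil markers such as S100a8 and Ltf summed to between 1993 and 6083 in the libraries numbered 1 and between 377 and 537 in those numbered 2.

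The gene levels are given as normalised counts on a scale shared by all 16 BMDM libraries. To compare levels between genes, counts were also divided by exon length and scaled to a fixed total per library (TPM). That length joins all annotated exons of a gene, and the order of genes depends on it. For Fcgr2b it was 3849 bases and for Fcgr3 1741, against 1603 and 1347 in their longest coding transcripts. At 0 h Fcer1g, the shared signalling chain, was the most abundant member in each of the 4 groups, with 2286 and 2676 TPM in WT of the Tet cohort and 3299 and 4042 TPM in WT of the Tdg cohort. Clec4d followed in WT of the Tet cohort with 1669 and 1667 TPM, then Fcgr1 with 697 and 834 TPM, Fcgr3 with 472 and 451 TPM and Clec4e with 363 and 341 TPM. Clec7a was the lowest there with 13.2 and 12.9 TPM. None of the 9 steps between neighbours in that order had overlapping libraries, although Clec4n (lowest 82.0 TPM) and Fcgr2b (highest 79.1 TPM) nearly touched. WT of the Tdg cohort had more ties: Clec4d overlapped Fcgr1, Fcgr4 overlapped Fcgr3, Clec5a overlapped Fcgr2b, and Clec4n overlapped Clec7a.

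After 6 h of KLA, Clec4e had the highest mean TPM in every group. It reached 4380 and 5078 TPM in WT of the Tet cohort, above Fcer1g with 2531 and 3085 TPM, and 3330 and 4197 TPM in WT of the Tdg cohort, where it overlapped Fcer1g (3478 and 3732 TPM). In TDG iKO it overlapped Fcer1g too (2917 and 4613 against 3409 and 3812 TPM), and was the lower of both in replicate 1. By mean TPM, Fcgr2b climbed from the eighth place to the fifth in the Tet cohort, in WT and in TET iTKO alike. In WT at 6 h its lowest library (205 TPM) lay below the highest of Fcgr4 (255 TPM) and of Fcgr3 (218 TPM). Fcgr3 dropped from the fourth to the seventh place in WT of that cohort, and overlapped Fcgr4 there.

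The cohorts differed most in Clec4n, which had normalised counts of 512 to 761 in all 8 libraries of the Tet cohort and 35.5 to 177 in those of the Tdg cohort. Within the Tdg cohort Clec4n was lower in replicate 1 than in replicate 2 in each of the 4 groups (65.0 against 177 in WT at 0 h), and so were Clec4e, Fcgr2b, Fcgr1, Fcgr4 and Fcer1g. The neutrophil markers were high in those same replicate 1 libraries, and their part in the difference was not tested. Cohort and culture date or run cannot be told apart here, so levels are compared below within a cohort only.

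**Figure D1:**
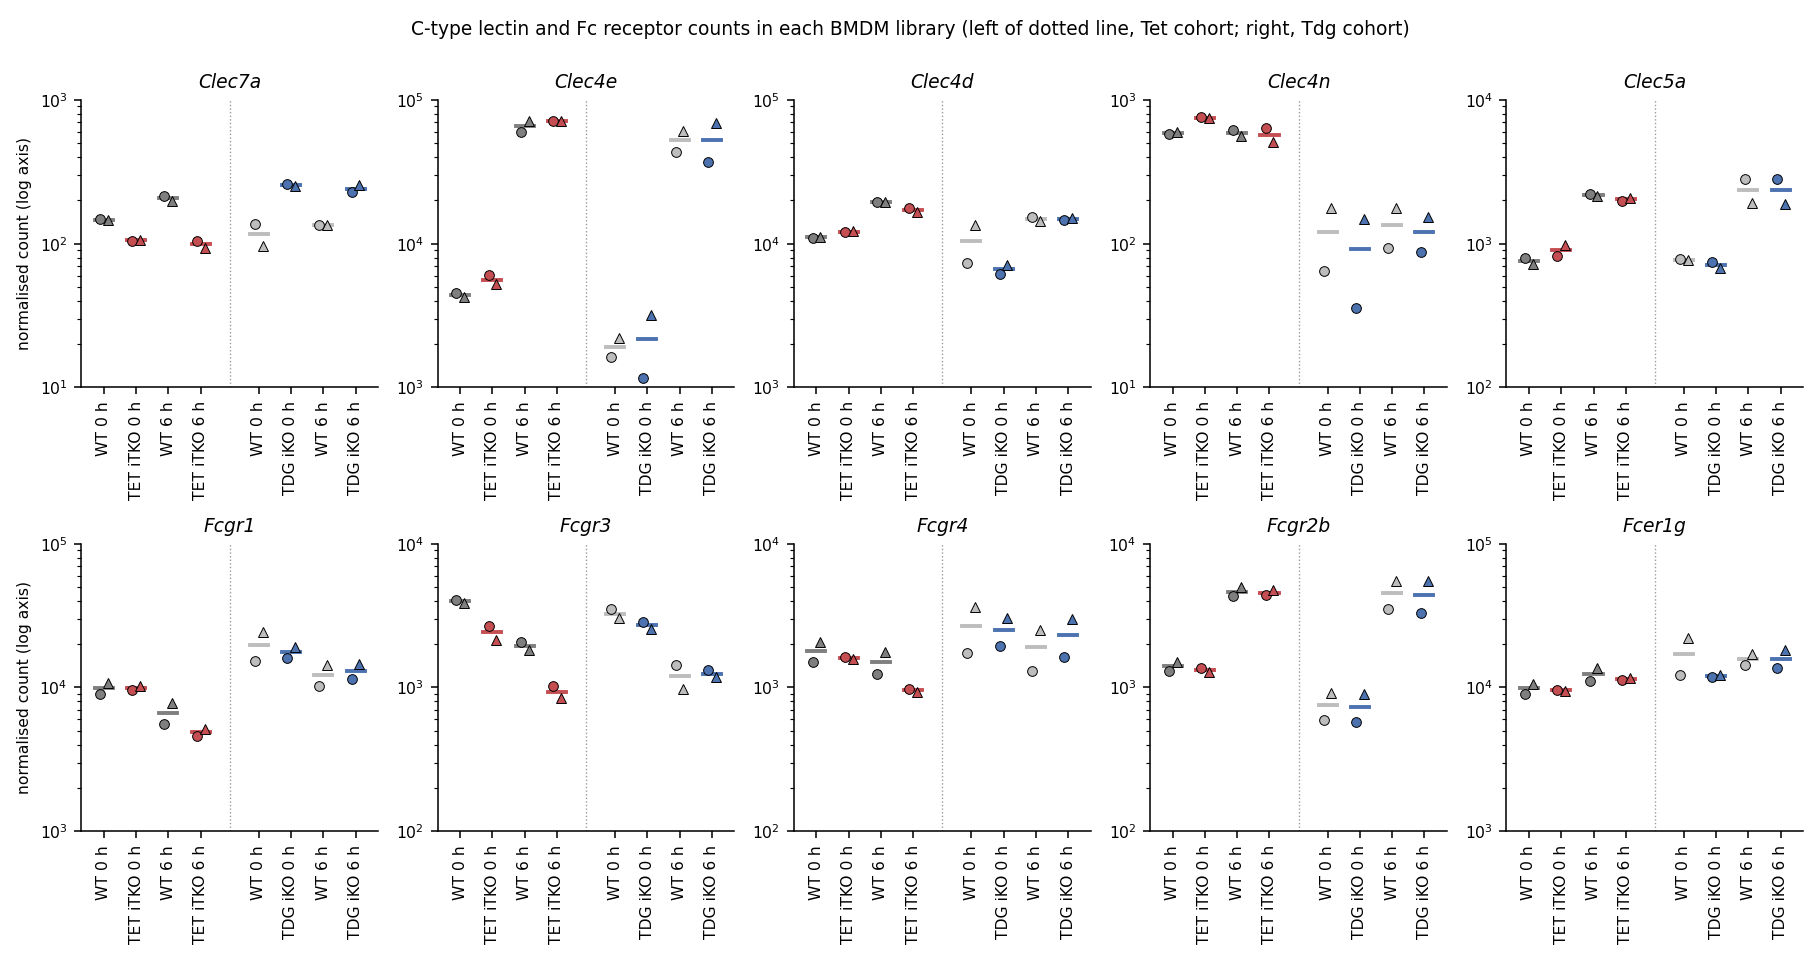
Normalised count (log axis) of each receptor gene in each of the 16 BMDM libraries, by genotype and hours of KLA, with the Tet cohort left and the Tdg cohort right of the dotted line. Circles are replicate 1, triangles replicate 2 and bars the mean of 2 libraries. Clec4e rises from 1160–6014 at 0 h to 36754–71510 at 6 h, Fcgr3 within the Tet cohort is lowest in TET iTKO at 6 h (1017 and 841), and Clec7a is lower in TET iTKO and higher in TDG iKO than in the WT libraries of their cohorts.

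KLA raised Clec4e, Fcgr2b and Clec5a in all 4 genotype groups and lowered Fcgr3 in all 4. Clec4e, the receptor for the mycobacterial cord factor, moved most. Its normalised count in WT of the Tet cohort went from 4521 and 4261 at 0 h to 60119.9 and 70889 at 6 h. The WT libraries at 6 h were all far above those at 0 h, a rise of 14.9-fold (log2 3.90 ± 0.11, SE, adjusted p = 7.36e-266). In TET iTKO it went from 6014 and 5249 to 71371 and 71509.5, or 12.6-fold. In the Tdg cohort it rose 27.4-fold in WT (1630 and 2207 to 43506 and 60924, log2 4.78 ± 0.49). In TDG iKO it rose 24.5-fold (1160 and 3174 to 36754 and 69085). The starting counts of TDG iKO were far apart, the WT counts lying between them.

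Fcgr2b, the inhibitory IgG receptor, was the member with the second largest rise. Its counts in WT of the Tet cohort were 1305 and 1510 before and 4309 and 4982 after KLA, 3.30-fold (log2 1.72 ± 0.12, adjusted p = 1.05e-43), and no 6 h library came near a 0 h library. TET iTKO gave 3.43-fold, from 1370 and 1274 to 4378 and 4751. In the Tdg cohort WT rose 6.06-fold (591 and 916 to 3518 and 5533) and TDG iKO 6.00-fold (573 and 898 to 3283 and 5518). The 2 genotypes of the Tdg cohort thus had nearly the same counts at each time in libraries of the same number.

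Clec5a rose 2.88-fold in WT of the Tet cohort, from 789 and 723 to 2219.5 and 2132 (adjusted p = 9.25e-32), 2.25-fold in TET iTKO, 3.08-fold in WT of the Tdg cohort and 3.35-fold in TDG iKO. Clec4d, which forms a complex with Clec4e, rose less. Its counts in WT of the Tet cohort were 11035 and 11052 at 0 h and 19453 and 19617 at 6 h, 1.77-fold (log2 0.82 ± 0.09, adjusted p = 3.02e-18). It rose 1.40-fold in TET iTKO, from 11967 and 12337 to 17714 and 16624 (adjusted p = 8.07e-07). In TDG iKO it rose 2.24-fold (adjusted p = 0.01), whereas the WT change of that cohort, 0.52 ± 0.33 on the log2 scale, did not pass (adjusted p = 0.393). The WT libraries of that cohort at 0 h were far apart for Clec4d (7360 and 13459). Per length, Clec4e was below Clec4d in every 0 h library (ratios of 0.0870 to 0.267) and above it in every 6 h library (1.33 to 2.44).

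Fcgr3, the low-affinity activating IgG receptor, fell under KLA. In WT of the Tet cohort it went from 4065 and 3894 to 2065 and 1836, 2.04-fold lower (log2 -1.03 ± 0.14, adjusted p = 1.05e-12). It fell 2.62-fold in TET iTKO, 2.68-fold in WT of the Tdg cohort (3497 and 3019 to 1441 and 980.5) and 2.16-fold in TDG iKO (2873 and 2558 to 1323 and 1176). The 6 h libraries were below the 0 h libraries of their group in each case. Fcgr1, the high-affinity IgG receptor, was called in the Tet cohort, where it fell 1.48-fold in WT (9026 and 10818 to 5550 and 7803, adjusted p = 0.000688) and 2.04-fold in TET iTKO (9641 and 10206 to 4597 and 5172, adjusted p = 3.24e-11). In the Tdg cohort its log2 changes were -0.68 ± 0.34 in WT and -0.43 ± 0.34 in TDG iKO (adjusted p = 0.237 and 0.765). Fcgr4 fell 1.68-fold in TET iTKO (1631 and 1575 to 983 and 938, adjusted p = 0.000117). In WT of that cohort it had 1500 and 2069 before and 1246 and 1773 after, which overlap (adjusted p = 0.355).

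Fcer1g changed little. It rose 1.26-fold in WT of the Tet cohort (9050 and 10627 to 11032 and 13677, adjusted p = 0.0288, edgeR 0.0668). In TET iTKO its change of 0.25 ± 0.12 on the log2 scale had an adjusted p of 0.123, and 0.00249 in a fit that paired the times of each animal with a replicate block, in which 25.9% of all genes were called. Clec4n fell 1.33-fold in TET iTKO (761 and 746 to 633 and 512, adjusted p = 0.03) and had a log2 change of 0.00 ± 0.15 in WT. Clec7a passed in none of the 4 groups by DESeq2. In WT of the Tet cohort its counts of 148 and 145 at 0 h lay below those of 214 and 199 at 6 h (log2 0.50 ± 0.23, adjusted p = 0.117, and 0.0326 by edgeR).

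In counts, 5 members rose and 2 fell in WT of the Tet cohort, where 24.1% of all genes tested were called (13.1% higher, 11.1% lower). In TET iTKO 4 rose and 4 fell, against 24.4% of all genes (12.8% higher, 11.6% lower). WT of the Tdg cohort had 3 that rose and 1 that fell, against 8.6% (5.29% higher, 3.32% lower), and in TDG iKO 4 rose and 1 fell, against 7.08% (4.27% higher, 2.81% lower). By edgeR 3 rose and none fell in TDG iKO, against 3.11% of all genes, Clec4d and Fcgr3 not passing (adjusted p = 0.0999 and 0.0686). The median log2 change of the 10 members was 0.41 in WT of the Tet cohort and 0.19 in WT of the Tdg cohort, against -0.01 and -0.03 over all genes tested. Several of the smaller calls rest on single libraries. For WT of the Tet cohort, Fcgr1 lost its call without replicate 1 at 6 h or replicate 2 at 0 h (adjusted p = 0.0584 and 0.0935), Fcer1g without replicate 1 at 0 h or replicate 2 at 6 h (0.421 and 0.485), and Fcgr4 gained one without replicate 2 at 6 h (0.0271). Clec4n in TET iTKO lost its call without replicate 1 at 0 h or replicate 2 at either time (0.164 to 0.372). In TDG iKO, Clec4d lost it without any of the 4 libraries (0.0743 to 0.231) and Fcgr3 without 3 of them (0.0652 to 0.202), all but replicate 1 at 6 h. For WT of the Tdg cohort Clec4d gained one without replicate 2 at 0 h (0.00215), the shallowest library, and Fcgr1 without replicate 1 at 0 h (0.0349), when 7.21% and 19.7% of all genes were called.

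**Figure D2:**
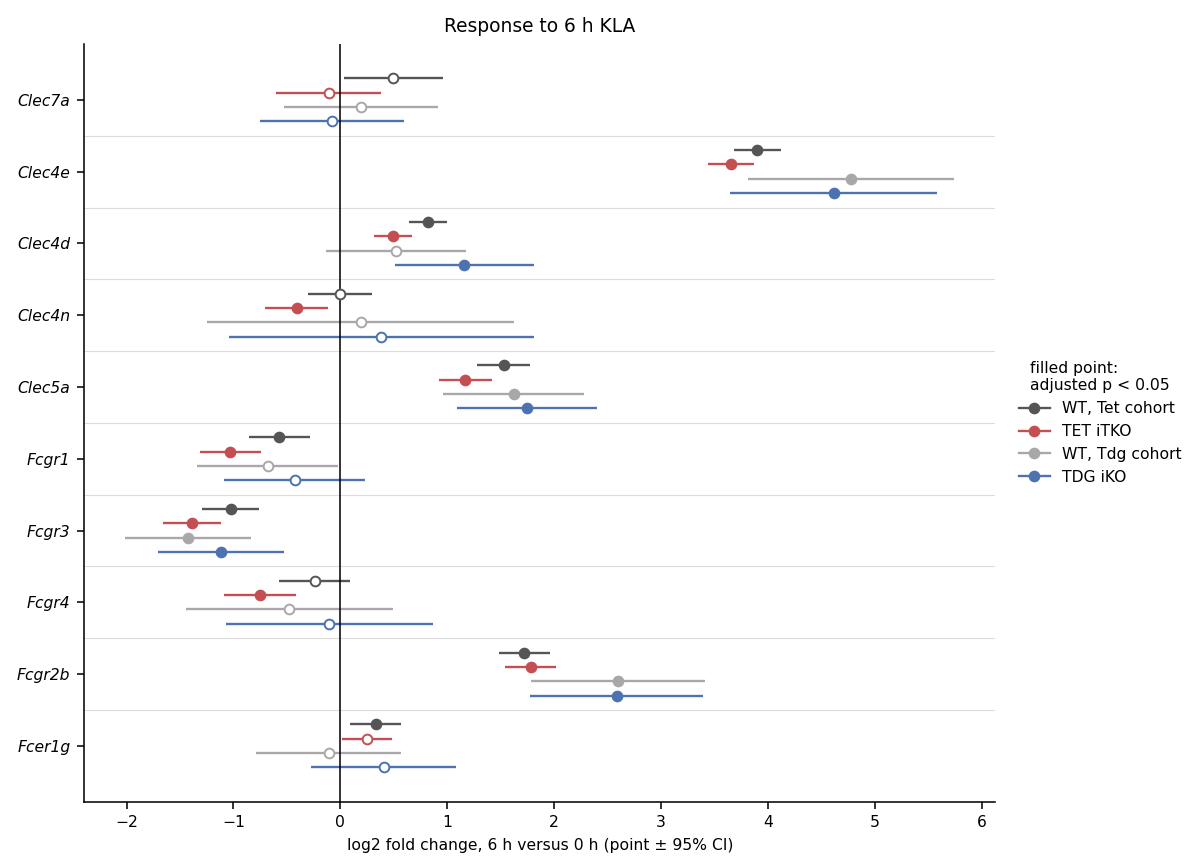
Log2 fold change of each receptor gene after 6 h of KLA (horizontal axis), with 95% confidence intervals from the DESeq2 fits, in WT and knockout cells of the Tet and Tdg cohorts. Filled points passed an adjusted p of 0.05. Clec4e, Fcgr2b and Clec5a lie right of 0 and Fcgr3 left of 0 in all 4 groups, and the intervals of the Tdg cohort are wider.

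With Fcgr2b rising and Fcgr3 falling, the ratio of this activating receptor to the inhibitory one was lower at 6 h than at 0 h in every group. In WT of the Tet cohort the TPM ratio of Fcgr3 to Fcgr2b was 6.89 and 5.70 at 0 h and 1.06 and 0.815 at 6 h. In TET iTKO it was 4.35 and 3.73 at 0 h and 0.514 and 0.391 at 6 h, in each case below both WT libraries of that time. In the Tdg cohort WT gave 13.1 and 7.28, then 0.906 and 0.392, and TDG iKO gave 11.1 and 6.30, then 0.891 and 0.471, so these genotypes overlapped at both times. The ratio of Fcgr1 to Fcgr2b was lower at 6 h as well, with 1.90 and 2.31 after 10.2 and 10.5 in WT of the Tet cohort and 4.29 and 3.81 after 38.2 and 39.0 in WT of the Tdg cohort. These ratios are descriptions with no test of their own, and the shared coding run touches Fcgr3 and Fcgr2b only. Their size depends on the exon lengths used, but their direction between times and genotypes does not.

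**Figure D3:**
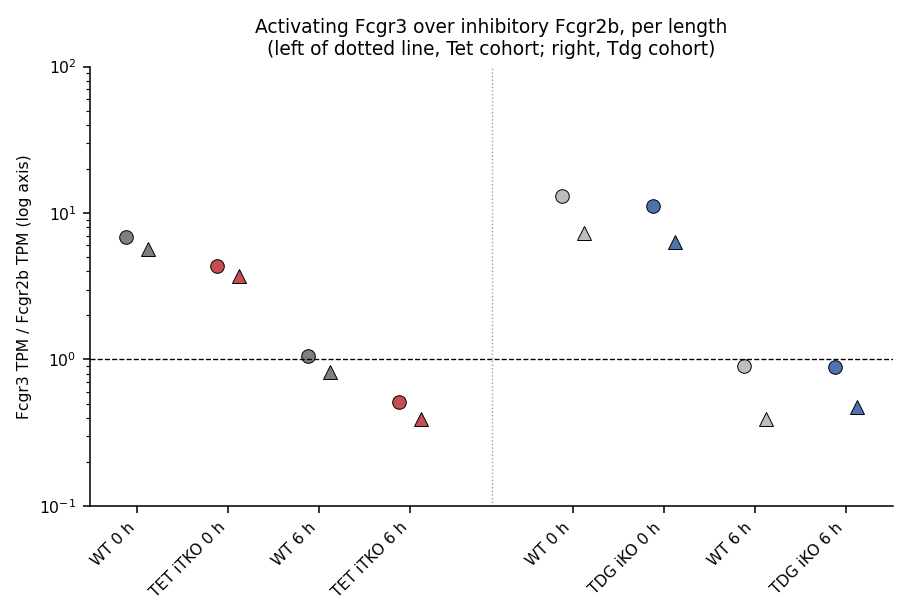
Ratio of Fcgr3 to Fcgr2b TPM (log axis) in each BMDM library, circles for replicate 1 and triangles for replicate 2, with the Tet cohort left and the Tdg cohort right of the dotted line. The dashed line marks equal TPM, which depends on the exon lengths used. All 8 libraries at 0 h lie between 3.73 and 13.1, and all 8 at 6 h between 0.391 and 1.06. TET iTKO lies below WT of the Tet cohort at both times.

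Fcgr3 was lower in TET iTKO than in WT before and after KLA. At 0 h TET iTKO had 2697 and 2149 normalised counts of Fcgr3 against 4065 and 3894 in WT, 1.65-fold lower (log2 -0.72 ± 0.14, SE, 95% interval -0.99 to -0.45, adjusted p = 8.47e-06). Both TET iTKO libraries lay below both WT libraries. At 6 h the counts were 1017 and 841 against 2065 and 1836, 2.12-fold lower (log2 -1.08 ± 0.14, adjusted p = 2.77e-12). The call was kept without any 1 library at either time, with log2 changes of -0.89 to -0.57 at 0 h and -1.23 to -0.95 at 6 h, and edgeR gave an adjusted p of 0.00982 and 0.00262.

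The other member called at 0 h was Clec4e, which was 1.28-fold higher in TET iTKO (6014 and 5249 against 4521 and 4261, adjusted p = 0.0244). However, edgeR gave an adjusted p of 0.0814, and the call was lost without any 1 of the 4 libraries (log2 0.26 to 0.45). Clec4n had 761 and 746 against 576 and 601 (log2 0.35 ± 0.15, adjusted p = 0.155). Clec7a had 105 and 107 against 148 and 145 (log2 -0.48 ± 0.24, adjusted p = 0.301). Clec4d and Clec5a had log2 differences of 0.14 ± 0.09 and 0.25 ± 0.13 (DESeq2 adjusted p = 0.516 and 0.306). The log2 differences of Fcgr1, Fcgr2b, Fcgr4 and Fcer1g were -0.00, -0.09, -0.16 and -0.04, with SE of 0.12 to 0.17, and their libraries overlapped. Thus 1 member was higher and 1 lower of 10, where 7.5% of all genes tested were called (4.38% higher, 3.12% lower). edgeR called Fcgr3 alone, against 6.01% of all genes.

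At 6 h, 4 members were lower in TET iTKO and none higher, against 6.58% of all genes (3.24% higher, 3.34% lower). They were Fcgr3, Clec7a, Fcgr4 and Fcgr1, of which edgeR called the first pair, against 4.68% of all genes. Clec7a had 105 and 92.8 counts in TET iTKO and 214 and 199 in WT, 2.12-fold lower (log2 -1.08 ± 0.24, adjusted p = 0.000407, edgeR 0.00482). The TET iTKO counts at 6 h were close to those at 0 h (105 and 107), whereas those of WT were above theirs. The difference between these KLA responses of Clec7a, log2 -0.61 ± 0.34 by DESeq2, passed by neither tool (edgeR adjusted p = 0.675). Fcgr4 had 983 and 938 against 1246 and 1773 (log2 -0.66 ± 0.17, adjusted p = 0.0035, edgeR 0.0575). Fcgr1 had 4597 and 5172 against 5550 and 7803 (log2 -0.46 ± 0.15, adjusted p = 0.0285, edgeR 0.116). The WT libraries of both genes were much further apart than the TET iTKO libraries.

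All 3 activating IgG receptors were thus lower in TET iTKO after KLA. The inhibitory receptor Fcgr2b had 4378 and 4751 counts against 4309 and 4982 (log2 -0.04 ± 0.12, 95% interval -0.27 to 0.20), and the signalling chain Fcer1g had 11327 and 11598 against 11032 and 13677 (log2 -0.12 ± 0.12, interval -0.36 to 0.12). Clec4d (log2 -0.20 ± 0.09, adjusted p = 0.22), Clec5a (-0.11 ± 0.12), Clec4n (-0.05 ± 0.15) and Clec4e (0.11 ± 0.11) did not pass. Clec7a lost its call without TET iTKO replicate 2 (adjusted p = 0.0571), Fcgr4 without TET iTKO replicate 2 or WT replicate 2 (0.119 and 0.274), and Fcgr1 without any of the 4 libraries but WT replicate 1 (0.0855 to 0.579). Without WT replicate 2 the log2 differences of Fcgr4 and Fcgr1 were -0.39 and -0.20. In bulk RNA, fewer cells of a type and less RNA per cell cannot be told apart.

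Markers of cell types moved with the TET genotype. Of 7 macrophage markers 1 was higher and 3 lower in TET iTKO at 0 h, and 4 were lower at 6 h, with summed counts of 281282 to 301932 in TET iTKO and 337320 to 373653 in WT. Of 7 neutrophil markers 3 were higher at either time, with sums of 913 to 1976 against 387 to 719.6. Of 5 B cell markers 3 were higher at 0 h and 1 at 6 h, with sums of 55.5 to 279 against 19.5 to 36.0, the highest in TET iTKO replicate 2. Of 7 monocyte and progenitor markers, which share Mpo with the neutrophil list, 3 were higher and 1 lower at either time. Of 6 dendritic cell markers 4 were tested at 0 h and 2 at 6 h, and 1 was higher at either time. Of 5 T cell markers 2 were tested at either time, and none was called. Of 6 mast cell and basophil markers 2 were tested at 0 h and 1 at 6 h, and none was called. Over all genes tested, 7.5% were called at 0 h and 6.58% at 6 h. The part of these shifts in the receptor results was not tested. The 4 NK cell markers, among them Ncr1, summed to at most 4.88 in every Tet cohort library.

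No member passed a test of whether KLA changed it differently in TET iTKO and WT when libraries were treated as unpaired (DESeq2, 0 of 10, against 0.426% of all genes). Of the 10, 4 had an unadjusted p under 0.05 by DESeq2 and 4 by edgeR, which also called 0 of 10, against 0.00874% of all genes. Of the 10 differences 9 were below 0, with a median of -0.36 against -0.01 over all genes. When the 0 h and 6 h libraries of each animal were paired by a replicate block nested in genotype, 3 members were called, all lower, where 2.48% of all genes were called (2.18% lower). These were Fcgr1 (-0.45 on the log2 scale, adjusted p = 0.00841), Fcgr4 (-0.50, 0.0285) and Clec4d (-0.33, 0.0405). That fit has 2 residual degrees of freedom. In the unpaired fit the same members had -0.46 ± 0.21, -0.51 ± 0.24 and -0.33 ± 0.13. Without WT replicate 1 at 6 h, Fcgr1 and Fcgr4 were also called in the unpaired fit (adjusted p = 0.00622 and 0.0457), when 3.64% of the genes tested were called.

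No member passed the test of TDG iKO against WT at 0 h or at 6 h, and DESeq2 and edgeR called 0.0% of all genes in both comparisons. Of the members 1, Clec7a, had an unadjusted p under 0.05 at each time, by either tool. Its counts at 0 h were 262 and 250 in TDG iKO and 137 and 95.7 in WT (log2 1.11 ± 0.36, 95% interval 0.40 to 1.82, unadjusted p = 0.00207, adjusted p = 1). At 6 h they were 227 and 254 against 134 and 135 (log2 0.84 ± 0.35, interval 0.15 to 1.53, unadjusted p = 0.0173, adjusted p = 1). The TDG iKO libraries lay above the WT libraries at both times, as did 10.9% and 8.2% of all genes tested.

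The other 9 members had log2 differences of -0.64 (Clec4d) to 0.18 (Clec4e) at 0 h and -0.16 (Clec4n) to 0.28 (Fcgr4) at 6 h, none with an unadjusted p under 0.05. For Fcgr3 the intervals were -0.85 to 0.32 at 0 h and -0.54 to 0.64 at 6 h. For Clec4n they ran from -1.79 to 1.08 and from -1.59 to 1.26, which takes in changes of 2-fold either way. Without WT replicate 1 at 0 h, when the lone WT library left was the shallowest, 3 members were called: Clec7a at 1.43 (adjusted p = 0.0156), Clec4d at -1.01 (0.00288) and Fcer1g at -0.87 (0.0477). In that fit 11.3% of all genes were called. No difference in KLA response between TDG iKO and WT was called for any member by DESeq2, by edgeR or with the nested block (each against 0.0% of all genes). Of the 10, 0 had an unadjusted p under 0.05 by either tool, and the SE of these differences ran from 0.42 to 1.03 on the log2 scale.

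**Figure D4:**
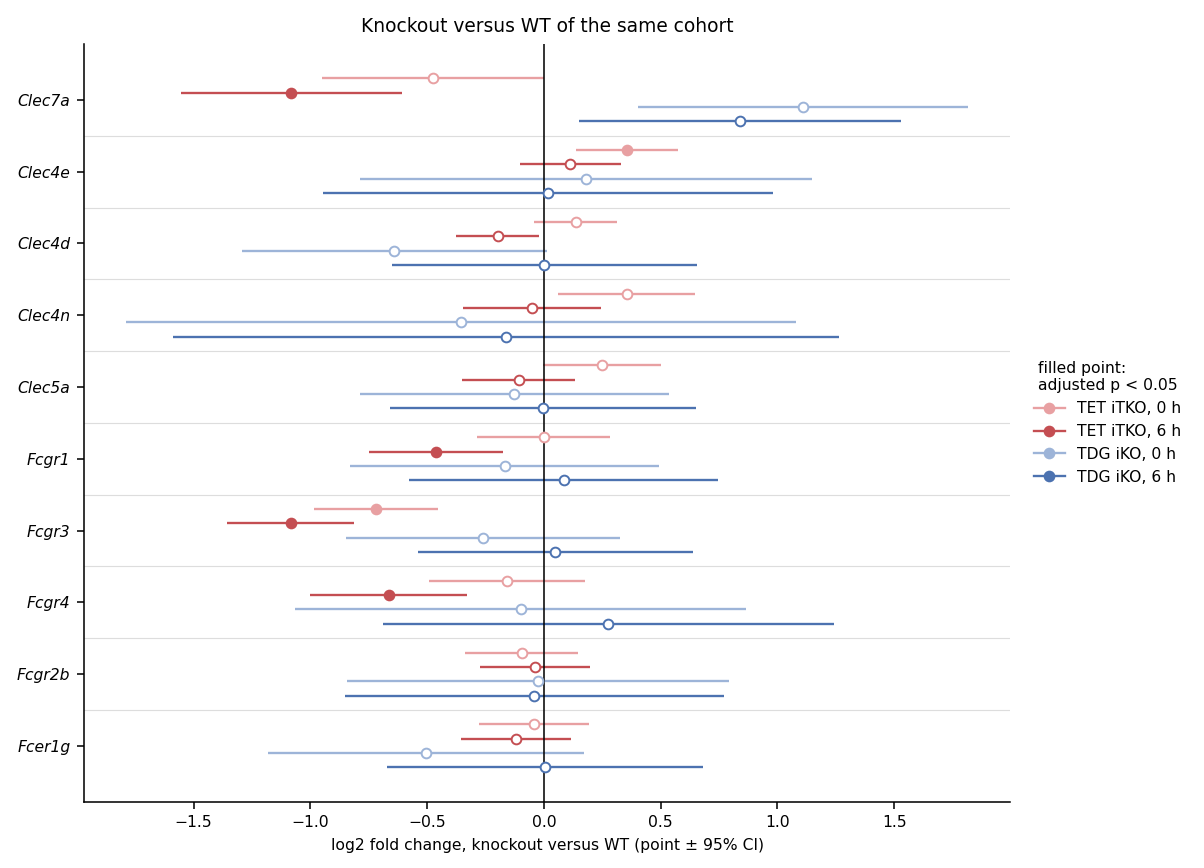
Log2 fold change of each receptor gene in TET iTKO or TDG iKO against WT of the same cohort and time (horizontal axis), with 95% confidence intervals from the DESeq2 fits. Filled points passed an adjusted p of 0.05. Fcgr3 is lower in TET iTKO at both times (-0.72 and -1.08), and the Clec7a points lie left of 0 for TET iTKO and right of 0 for TDG iKO.

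Clec7a was the member called for a difference between the effects of TET loss and TDG loss when libraries were not blocked by number. The TET difference minus the TDG difference was -1.55 ± 0.31 on the log2 scale at 0 h (95% interval -2.16 to -0.95, adjusted p = 0.000509) and -1.91 ± 0.30 at 6 h (interval -2.50 to -1.33, adjusted p = 1.02e-06) in a fit of all 16 BMDM libraries. DESeq2 called 0.355% and 0.0765% of all genes in these comparisons. edgeR gave Clec7a an adjusted p of 0.167 and 0.108, and called 0 members (0.0% and 0.00851% of all genes). By DESeq2 the Clec7a call was kept without any 1 library. Fcgr3 differed by -0.45 ± 0.30 at 0 h and -1.12 ± 0.30 at 6 h (adjusted p = 0.831 and 0.132), and was called at 6 h without WT replicate 1 of the Tdg cohort (0.00401). Without WT replicate 1 of that cohort at 0 h, Clec4d (1.15, adjusted p = 1.78e-10) and Fcer1g (0.83, 0.0201) were called there too, in a fit that called 20.8% of all genes.

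Members that KLA raised were close to other genes with the same course. Over the 16 libraries, each cohort centred on its own mean, Clec4e was most like Irg1 (Pearson r = 0.994), Snx10 and Peli1, out of 9475 genes whose counts averaged 50 or more. Fcgr2b was most like Slc31a2 (0.994), Tnfaip2 and Mefv, Clec5a like Stard5 (0.985), Fas and Sgms1. Clec4d was close to Prdx5 (0.970) and Pilrb2. Fcgr3 was most like Gas6 (0.989), Sepp1 and Got1. Clec7a had no close match, its highest r being 0.831 (AI427809). Among the members, Clec4e and Fcgr2b had an r of 0.989, Clec4e and Fcgr3 an r of -0.88, Fcgr1 and Fcgr4 an r of 0.845, and Clec7a had no r beyond 0.131 or below -0.29. The values of Clec4e, Fcgr2b, Clec5a and Fcgr3 rest mainly on the contrast of 0 h and 6 h in the same libraries. Those of Clec7a and Fcgr4 also take in differences between genotypes and replicates. By DESeq2 Clec7a passed no KLA test, and Fcgr4 passed in TET iTKO only.

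Lists of related genes are given by their counts, to be read beside the shares of all genes called: 24.1% for KLA in WT of the Tet cohort, 8.6% for KLA in WT of the Tdg cohort, and 7.5% and 6.58% for TET iTKO at 0 h and 6 h. For KLA in TET iTKO and in TDG iKO the shares were 24.4% and 7.08%. The lists were not tested as sets. Of 23 adaptors and proximal signalling genes, 11 rose and 4 fell under KLA in WT of the Tet cohort, and 9 rose and 1 fell in WT of the Tdg cohort. Malt1, the protease of the CARD9 complex downstream of the lectins, rose 9.13-fold in the Tet cohort (404 and 475 to 3235 and 4801) and 15.1-fold in the Tdg cohort. Lcp2 (SLP-76), a scaffold of SYK signalling, rose 2.58-fold and 3.68-fold. In TET iTKO 6 of the 23 were higher and 2 lower at 0 h, and 3 higher and 2 lower at 6 h. Lat2, a linker adaptor, was lower at both times (1.58-fold and 1.69-fold), Blnk was 1.83-fold lower and the kinase Fgr 1.56-fold higher at 0 h, and Malt1 and the exchange factor Vav2 were 1.70-fold and 1.76-fold higher at 6 h. Under KLA 11 rose and 3 fell in TET iTKO, and 6 rose and 1 fell in TDG iKO.

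Of 18 inhibitory receptors and phosphatases, 17 were in the files. With KLA 5 rose and 5 fell in WT of the Tet cohort, and 2 rose and 2 fell in WT of the Tdg cohort. In TET iTKO 4 rose and 9 fell, and in TDG iKO 2 rose and 3 fell. Siglece, an inhibitory sialic acid receptor, rose 11.1-fold under KLA in WT of the Tet cohort, and Ptpn6 (SHP-1) rose 2.20-fold. Inpp5d, which encodes the SHIP-1 phosphatase recruited by Fcgr2b, fell 1.74-fold there. At 0 h 3 of the 17 were higher in TET iTKO and none lower. Siglece had 409 and 491 counts in TET iTKO against 86.6 and 76.7 in WT, 5.54-fold higher (adjusted p = 4.69e-38), and was 1.91-fold higher at 6 h. At that time 1 was higher and 3 lower, Cd300lf by 1.87-fold and Lilrb4 by 1.31-fold among them. Lilrb4 did not pass by edgeR (adjusted p = 0.0789).

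Of 22 other C-type lectins, 10 to 18 had enough counts to be tested. In WT 6 rose and 2 fell in the Tet cohort and 5 rose in the Tdg cohort, led by Olr1, the oxidised lipoprotein receptor, which rose 17.3-fold and 18.8-fold. In TET iTKO 5 rose and 2 fell under KLA, and in TDG iKO 5 rose. Mrc1, the mannose receptor, was lower in TET iTKO at 0 h (2318 and 1750 against 5252 and 3582, 2.18-fold) and at 6 h (2.32-fold). Clec4a1 was 1.56-fold higher at 0 h, the only other call, and Olr1 2.50-fold lower at 6 h. Of 12 other Fc receptors 6 to 11 were tested. Fcrl5 was 4.33-fold and Fcrls 1.96-fold higher in TET iTKO at 0 h, both also at 6 h, and no others were called in these comparisons. Fcrl5 is known from B cells, of whose 5 markers 3 were higher in TET iTKO at 0 h and 1 at 6 h. A link between them was not tested. Under KLA in WT 2 rose and 2 fell in the Tet cohort and 1 rose and 1 fell in the Tdg cohort. Trim21, a cytosolic antibody receptor, rose 2.04-fold and 2.67-fold, the latter not passing by edgeR (adjusted p = 0.104). In TET iTKO 1 rose and 3 fell, and in TDG iKO 1 fell.

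Of the 7 genes of the phagocyte NADPH oxidase, which makes superoxide after Fc receptor and lectin engagement, 4 rose in WT and 4 in TET iTKO of the Tet cohort, and 2 in WT and 3 in TDG iKO of the Tdg cohort. None fell. Cybb, its catalytic subunit, rose from 13033 and 12347 to 51913 and 58822 in WT of the Tet cohort, 4.37-fold, and 4.56-fold in WT of the Tdg cohort. In TET iTKO Rac2 was 1.61-fold and Ncf4 1.35-fold higher at 0 h, and Rac2 1.26-fold higher at 6 h (adjusted p = 0.0446, edgeR 0.113). A difference in KLA response between TET iTKO and WT was called for 2 adaptors (Fgr among them) and 2 inhibitory genes (Siglece and Cd300lf). All were lower, and none of the other 3 lists had a call. DESeq2 called 0.426% of all genes in that comparison, and edgeR 0.00874%. In the order adaptors, inhibitory genes, lectins, Fc receptors and oxidase, the median log2 changes were 0.21, 0.07, 0.67, -0.41 and 0.72 for KLA in WT of the Tet cohort, against -0.01 over all genes. For TET iTKO against WT at 0 h they were 0.20, 0.18, -0.02, 0.97 and 0.08, against 0.01. No gene of the 5 lists was called in a TDG comparison with WT. The 5 lists held 1 call for the difference between TET and TDG effects, Siglece at 0 h.

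In the 8 Th2 libraries, T cells that served as the other cell type of the study, the receptors were nearly silent. Fcgr3 had 27 to 89 reads (median 45), and the other 9 members had at most 10 reads, with 0 in every library for Clec7a, Clec4d, Clec4n and Clec5a.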

How the data were processed

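Libraries were made from polyA+ RNA with a directional kit and sequenced as paired ends. Per the labels and the study's methods, the authors aligned reads to mm9 with HISAT2 and deposited raw counts per gene from HTSeq. Versions of either, the annotation and the strand setting are not given in the sources used here. The 5 rows per library that tally unassigned reads (32.8 to 46.6% of read pairs in BMDM) were left out. Groups were taken from the sample titles and characteristics.

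Counts were tested with DESeq2 1.42.0 (Wald test, Benjamini-Hochberg over all genes, adjusted p under 0.05) in R 4.3.3, on the 8 libraries of a cohort together, or on all 16 BMDM libraries for the TET effect minus the TDG effect. Size factors of the 16 BMDM libraries gave normalised counts. TPM used GENCODE vM1 exon lengths, which matched 90.0% of symbols. Intervals are ± 1.96 SE. The tests were run on simulated counts with planted changes larger than the differences between genotypes found for the members. That run does not show how well smaller changes are recovered. Alternatives were TMM factors, a filter of at least 10 counts in 2 libraries, replicate blocks, only the groups compared, edgeR 4.0.16 (quasi-likelihood), and leaving out each library. Since a lone library is then assumed to vary like the other groups, such values are checks only.

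In the Tet cohort an animal number carried by the deposited tables ties the 0 h and 6 h libraries of a replicate. Their deviations from the group means correlated (r = 0.517 in WT and 0.461 in TET iTKO), so the block nested in genotype is given where it changes a call. Between genotypes the numbers did not pair libraries there (0.0131 and 0.0348).

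The 10 members and the lists of signalling, inhibitory, lectin, Fc receptor, oxidase and cell marker genes were chosen with earlier results of these data known. All members are named, and of each list the 3 genes with the smallest adjusted p. A few items that this rule names are not reported here. Promoters came from RefSeq (GRCm38.p6). Comparisons within a cohort share libraries.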

Additional observations from a re-analysis of the deposited data

Results flagged for a closer look

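Clec7a, the beta-glucan receptor, stood out because the differences from WT in TET iTKO and in TDG iKO themselves differed by a test of the difference. The TET difference minus the TDG difference was -1.55 on the log2 scale at 0 h and -1.91 at 6 h (DESeq2, adjusted p = 0.000509 and 1.02e-06, with 0.167 and 0.108 by edgeR). At 0 h neither knockout alone passed against its WT (adjusted p = 0.301 for TET iTKO and 1 for TDG iKO). The TET and TDG knockouts came from separate cohorts, so cohort and knockout are told apart only through the WT of each. Groups of 2 libraries allow no test for a single library that stands apart.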

How the results depend on the processing

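Of the 45 member results with an unadjusted p under 0.05, none reversed under any setting. Among 252 values from other settings 232 kept direction and side of the threshold, 11 lost the call and 9 gained one, and without 1 library 182 of 212 kept both, 24 lost the call and 6 gained one. Of the 75 values with an unadjusted p of 0.05 or more, 49 changed sign under at least 1 setting. edgeR called 1 member in place of 2 for TET iTKO at 0 h, 2 in place of 4 at 6 h, 3 in place of 5 for KLA in TDG iKO, and 0 in place of 1 for the TET minus TDG effect at both times. Without 1 library the calls were 1 each time for TET iTKO at 0 h, 1 to 4 at 6 h, 0 to 2 for the change of KLA response in TET iTKO, 0 to 3 for TDG iKO at 0 h, 3 to 4 for KLA in TDG iKO, and 1 to 3 and 1 to 2 for the TET minus TDG effect at 0 h and 6 h. The cause was not tested, beyond the smaller number of libraries. A fit of only the groups compared ended the calls of Fcgr1 in TET iTKO at 6 h (adjusted p = 0.0899), Fcer1g for KLA in WT of the Tet cohort (0.0561) and Clec4n for KLA in TET iTKO (0.0719), and added Fcer1g for KLA in TET iTKO (0.0408). The nested replicate block gave 3 calls in place of 0 for the change of KLA response in TET iTKO. With replicate number as a block, the TET minus TDG effect at 6 h had 2 calls in place of 1, Fcgr3 being added (-1.14, adjusted p = 4.46e-05). In the Tdg cohort libraries share only a number, which correlated between genotypes at 0 h and 6 h (r = 0.316 and 0.810) and between times (0.357 in WT and 0.815 in TDG iKO). Both blocks there called Fcgr1 for KLA in WT (adjusted p = 0.0205 and 0.0232). Clec7a and Clec4n had the lowest counts of the members in the Tdg cohort, and Clec4n the largest SE for TDG iKO against WT.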
